A study of Homo sapiens with 12 samples.

Results

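The genes described here encode the proteasome, the protease that degrades ubiquitin-tagged proteins in the cytosol and nucleus, together with its activators. The set holds 40 genes chosen by role: 7 subunits of the alpha ring of the 20S core, 7 constitutive subunits of its beta ring, 3 catalytic subunits of the immunoproteasome (PSMB8, PSMB9 and PSMB10), 6 ATPases and 4 non-ATPase subunits of the base of the 19S cap, 8 subunits of the 19S lid, 4 alternative activators (PSME1 to PSME4) and POMP, the maturation factor of the core. Matched by Ensembl identifier with the version removed, 39 of the 40 were found among the 47634 genes of the count tables, 24210 of which had a count in any library. PSMB3, of the constitutive beta ring, is not analysed here. Of the 39, 36 passed the filter on low counts and were tested, and the 3 that did not pass were PSMB8, PSMB9 and PSMB10.

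Counts came from HepG2, an established human hepatocellular carcinoma cell line. Wild type cells and cells with a knockout (KO) of ATP7B, the copper-exporting ATPase whose loss causes Wilson disease, were left untreated or incubated with copper for 24 h. That gives 4 groups of 3 libraries labelled as biological replicates, called wild type untreated, wild type copper, ATP7B KO untreated and ATP7B KO copper, each with replicates 1 to 3. The labels name 1 KO line, so that what differs between it and wild type cells cannot be told apart from what differs between any 2 lines, and the sources used here give neither the copper dose nor the position of the edit. Nothing says that replicates came from separate cultures, so p-values measure the spread between these libraries, which may be technical.

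In the 26S proteasome, a 20S core of 4 stacked rings is capped by the 19S particle. The outer alpha rings gate the entry of substrates, and the inner beta rings hold the proteolytic sites in PSMB5, PSMB6 and PSMB7. The 19S base is a ring of ATPases that unfolds substrates, flanked by the scaffold subunits PSMD1 and PSMD2 and the ubiquitin receptors PSMD4 and ADRM1. The 19S lid holds PSMD14, the enzyme that removes ubiquitin chains before degradation. Transcription of subunit genes is known to rise together when proteasome capacity is short, through NFE2L1 acting with small MAF proteins at antioxidant response elements. Interferon induces the immunoproteasome subunits and the PSME1 and PSME2 activator.

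Libraries held 976658 to 3829151 counts. Replicate 1 of wild type copper, and replicates 1 and 2 of ATP7B KO untreated, stood apart from the rest of their groups. They had the lowest totals of all 12 (1873703, 1443372 and 976658 counts) and were the only libraries above 0 on the first principal component, which held 43.7% of the variance. Where a gene's own log2 fold change is printed below, it is given with and without them under a set condition. The condition is that leaving them out ended its call or moved a called value by more than 1.5-fold on the linear scale. Genes named only in lists of calls, such as PSMA6 in KO cells, carry no such values. Without them, ATP7B KO untreated replicate 3 is alone in its group and is assumed to vary like the other groups. ATP7B itself was counted in every library and did not pass the test between the lines untreated (log2 fold change -0.75 ± 0.38 SE, adjusted p = 0.15). A 3′ tag outside the edit checks nothing about the label. The hepatocyte markers ALB, TTR, APOA1, APOB, SERPINA1, TF, FGB and HNF4A were all present, whereas the defining markers PTPRC (1 count), CD3E (0) and KDR (0) of leukocytes and endothelium were at or near 0 over all libraries. LYZ, on the leukocyte list, was abundant (22973 counts), and CD68 (390) and CD14 (32) of that list were counted too. On the endothelial list VWF had 20 counts and CDH5 8. The fibroblast list was not at 0 either, with COL1A1 at 357 counts, PDGFRB 176, COL1A2 102, COL3A1 53, LUM 10 and DCN 8.

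The summed level of the proteasome genes was higher with copper in both lines, and libraries of a group lay close together (see the plot of summed levels by role). Levels are in CPM, a gene's share of all counts of its library on the customary scale. Summed over the 39 genes, wild type untreated libraries were at 7131, 7280 and 7418 CPM and wild type copper libraries at 12863, 12404 and 12690 CPM. In the KO line the sums were 8523, 8303 and 8414 CPM untreated and 16193, 15730 and 15841 CPM in copper. No group overlapped another. As a share of all counts this was 0.713% to 0.742% in wild type untreated libraries, 1.24% to 1.29% in wild type copper, 0.830% to 0.852% in ATP7B KO untreated and 1.57% to 1.62% in ATP7B KO copper. The summed level of the 8 hepatocyte markers moved the other way. It was 13346 to 13719 CPM in wild type untreated and 7043 to 7390 CPM in wild type copper. In KO cells it was 7459 to 7727 CPM untreated and 2518 to 2905 CPM in copper. Not every marker followed the sum between the untreated lines. APOB (3061 against 1896 CPM), SERPINA1 (680 against 541 CPM) and FGB (264 against 213 CPM) had higher means in KO cells. ALB, TTR, APOA1, TF and HNF4A had lower ones. SERPINA1 was at 384 CPM in ATP7B KO untreated replicate 3, and at 817 and 838 CPM in replicates 1 and 2. The part of the marker sum in the proteasome shares was not tested. The mitochondrial share of counts, 2.97% to 3.80% in wild type untreated, was also higher in the other groups, at 6.58% to 8.59% in wild type copper, 5.82% to 8.85% in ATP7B KO untreated and 8.34% to 9.46% in ATP7B KO copper, and its part was not tested either. In bulk RNA, fewer cells of a kind and less RNA per cell cannot be told apart.

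**Figure D1:**
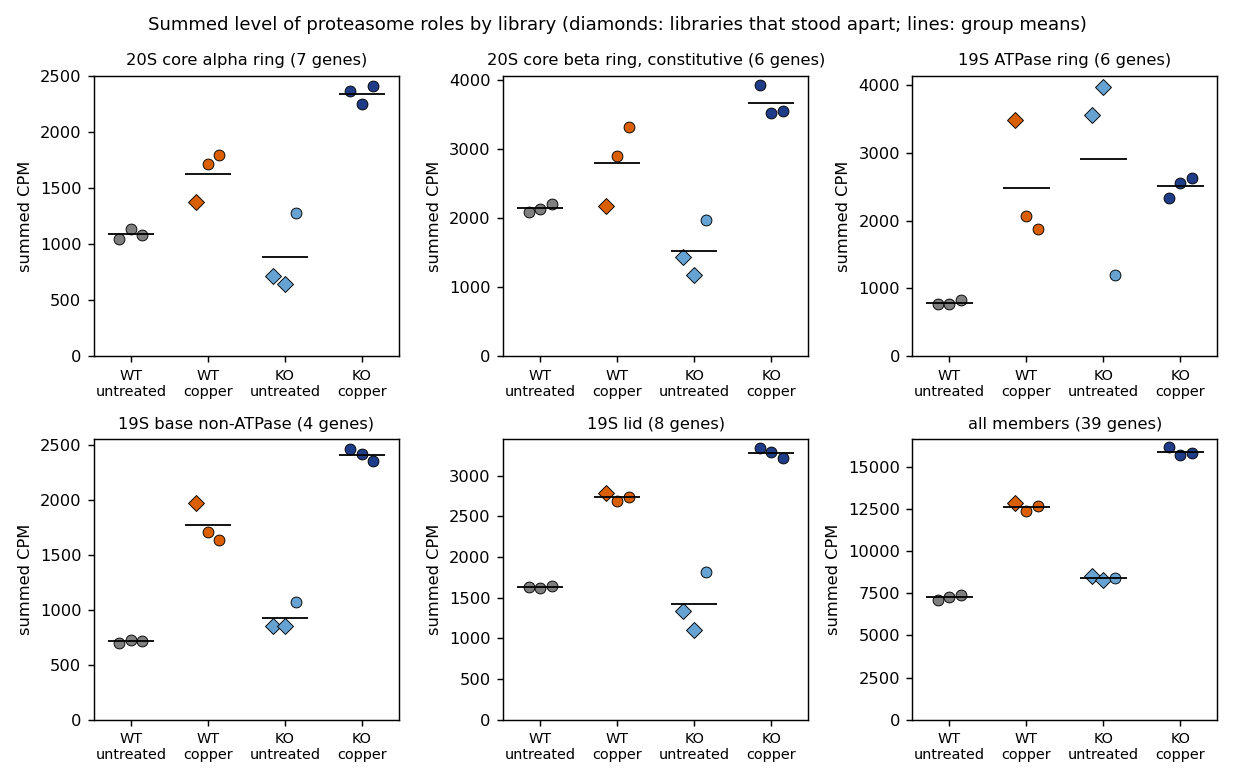
Summed CPM (y axis, from 0) of each proteasome role in the 4 groups (x axis), with 1 point per library, diamonds for the 3 libraries that stood apart and lines for group means. The sum over all 39 genes is tight within every group, while the 19S ATPase ring spans 1195 to 3979 CPM within ATP7B KO untreated.

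Within that steady total the roles were not steady in the libraries that stood apart. The 6 genes of the 19S ATPase ring summed to 3564 and 3979 CPM in ATP7B KO untreated replicates 1 and 2, against 1195 CPM in replicate 3. The alpha ring of the core was at 718, 647 and 1279 CPM in the same 3 libraries, and the constitutive beta ring at 1442, 1168 and 1964 CPM. The ratio of summed 19S to summed 20S CPM was 0.953 to 0.989 in wild type untreated, 1.22 and 1.40 in wild type copper replicates 3 and 2, 1.26 in ATP7B KO untreated replicate 3 and 1.29 to 1.43 in ATP7B KO copper. It was 2.33 in wild type copper replicate 1, and 2.66 and 3.27 in ATP7B KO untreated replicates 1 and 2. This ratio is one of tags and not of protein subunits.

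Copper raised proteasome genes of most roles in wild type cells, in the 19S cap as well as in the 20S core. In edgeR's quasi-likelihood test with Benjamini-Hochberg adjustment over all 11051 genes tested, 17 of the 36 tested members rose and 1 fell at an adjusted p under 0.05. Over all genes, 14.9% were called, 8.23% higher and 6.68% lower. Of the 19S cap, 11 of 18 rose, with a median log2 fold change over all 18 of 0.95. Of the 20S core, 4 of 13 rose, with a median of 0.41. The median over all genes tested was -0.03. When each library was left out in turn, 6.4% to 33.1% of all genes were called. Without wild type untreated replicates 1, 2 and 3 these shares were 6.42%, 6.4% and 7.08%. The count of members called ranged from 7 to 26. It was 7, 8 and 9 without wild type untreated replicates 1, 2 and 3, 11 without wild type copper replicate 2, and 32 (31 rose, 1 fell, with 20.4% of all genes called higher and 19.6% lower) without the 3 libraries that stood apart, when 11 of 13 core genes and 17 of 18 cap genes rose.

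The non-ATPase subunits of the 19S base gave some of the steadiest increases. ADRM1, a ubiquitin receptor of the base, measured 92.3, 97.4 and 86.8 CPM without copper and 357, 359 and 332 CPM with it, with no overlap. It rose by a log2 fold change of 1.95 ± 0.20 (SE, adjusted p = 0.00015). PSMD1 and PSMD2, the scaffold subunits, rose by 1.47 ± 0.19 (adjusted p = 0.00052) and 1.75 ± 0.23 (adjusted p = 0.00058). PSMD4, the other ubiquitin receptor, measured 254, 256 and 264 CPM without copper and 289, 271 and 285 CPM with it, and did not pass the test (0.15 ± 0.24, adjusted p = 0.71).

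In the lid, PSMD12 measured 47.2, 48.8 and 57.3 CPM without copper and 146, 144 and 143 CPM with it. All copper libraries were above all untreated ones, and the replicates in copper were nearly equal. PSMD12 rose by 1.52 ± 0.16 (adjusted p = 0.00016). PSMD14, the deubiquitinase, went from 172, 135 and 158 CPM to 811, 507 and 382 CPM, highest in the library that stood apart, and rose by 1.90 ± 0.29 (adjusted p = 0.0013). It was at 1.58 ± 0.11 without the 3 libraries that stood apart. PSMD6, PSMD7 and PSMD8 also rose, by 0.85 to 0.96, while PSMD3, PSMD11 and PSMD13 did not pass.

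Of the ATPases, PSMC1, PSMC5 and PSMC6 rose in wild type cells, by 2.29 ± 0.51 (adjusted p = 0.011), 1.14 ± 0.34 (0.042) and 0.87 ± 0.19 (0.0098). PSMC1 measured 324, 298 and 359 CPM without copper and 2303, 1256 and 1145 CPM with it. Replicate 1 of the copper group was the highest, and the other 2 were still above every untreated library. PSMC1 has 13 pseudogenes named after it in the annotation, and reads shared with them could be split in the counting, so its level is uncertain. PSMC2, PSMC3 and PSMC4 were at 0.70, 0.94 and 1.01 and did not pass.

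Among core subunits of wild type cells, PSMA3, PSMA4, PSMA6 and PSMB2 rose, by 0.78 to 1.75. PSMB5, which carries the chymotrypsin-like site, measured 994, 1007 and 1111 CPM without copper and 1194, 1240 and 1274 CPM with it (0.28 ± 0.20, adjusted p = 0.37), and PSMB6 and PSMB7, the other catalytic subunits, were at 0.41 and 0.85 and did not pass. POMP, which is needed to assemble the core, rose by 1.16 ± 0.21 (adjusted p = 0.0040), from 245, 278 and 272 to 511, 608 and 622 CPM.

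The activators did not move as 1 group. PSME4, the nuclear activator PA200, rose by 1.19 ± 0.29 (adjusted p = 0.019), from 144, 126 and 134 to 220, 346 and 342 CPM. PSME1, a subunit of the PA28 activator that interferon induces, was the only member that fell. Its libraries measured 350, 353 and 398 CPM without copper and 236, 232 and 196 CPM with it, and its log2 fold change was -0.70 ± 0.18 (adjusted p = 0.022). Its partner PSME2 was at -0.32 ± 0.36 and PSME3 at 0.38 ± 0.37, neither past the test. The calls of PSMD1, PSMD2, ADRM1, PSMD12, PSMD14 and POMP held in every fit with 1 library left out. Each of the other 12 was lost in at least 1 such fit, at adjusted p up to 0.16, and PSME1 was lost without wild type untreated replicate 1, 2 or 3 or wild type copper replicate 2 or 3 (adjusted p up to 0.12).

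Promoter sequences of 5 members are shown because these genes changed with copper in both lines and differ in the motifs they hold. They are the 250 bases before the annotated start, from RefSeq (GRCh38.p14), 5′ to 3′ on the gene's strand. Capitals mark matches on either strand to the antioxidant response element TGACNNNGC or to the CCAAT box. The positions are chr17:67366578-67366827 (minus strand) for PSMD12, chr20:62302646-62302895 (plus) for ADRM1, chr2:53970994-53971243 (minus) for PSME4, chr2:161308175-161308424 (plus) for PSMD14 and chr14:24135944-24136193 (plus) for PSME1.
PSMD12: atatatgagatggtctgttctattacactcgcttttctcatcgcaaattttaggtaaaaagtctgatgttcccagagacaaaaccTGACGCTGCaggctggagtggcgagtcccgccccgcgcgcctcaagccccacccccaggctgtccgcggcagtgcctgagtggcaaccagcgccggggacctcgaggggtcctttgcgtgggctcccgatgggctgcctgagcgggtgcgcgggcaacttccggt
ADRM1: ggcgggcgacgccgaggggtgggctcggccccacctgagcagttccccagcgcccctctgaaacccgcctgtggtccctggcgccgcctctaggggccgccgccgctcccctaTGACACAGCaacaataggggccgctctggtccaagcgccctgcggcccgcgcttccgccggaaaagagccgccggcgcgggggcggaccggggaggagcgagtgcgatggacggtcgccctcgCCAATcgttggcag
PSME4: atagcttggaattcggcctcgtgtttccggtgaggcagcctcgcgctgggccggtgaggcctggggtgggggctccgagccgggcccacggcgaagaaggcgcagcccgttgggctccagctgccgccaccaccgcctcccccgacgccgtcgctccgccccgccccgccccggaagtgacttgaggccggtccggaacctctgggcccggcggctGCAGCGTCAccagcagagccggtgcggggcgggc
PSMD14: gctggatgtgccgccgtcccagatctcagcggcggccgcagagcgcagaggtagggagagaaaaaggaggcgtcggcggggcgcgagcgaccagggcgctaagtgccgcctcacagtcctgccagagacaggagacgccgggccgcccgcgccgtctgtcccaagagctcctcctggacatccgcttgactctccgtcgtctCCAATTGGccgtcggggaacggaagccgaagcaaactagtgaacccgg
PSME1: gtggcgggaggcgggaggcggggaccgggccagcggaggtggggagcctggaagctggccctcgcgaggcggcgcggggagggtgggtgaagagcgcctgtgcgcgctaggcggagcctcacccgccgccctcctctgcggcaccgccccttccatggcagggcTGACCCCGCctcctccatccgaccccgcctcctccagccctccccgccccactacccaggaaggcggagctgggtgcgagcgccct

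PSMD12 has an antioxidant response element with its first base at -165 from the start, ADRM1 has one at -137 and a CCAAT box at -14, and PSME4 has one at -34 on the other strand. PSMD14, which rose as PSMD12 did, has no match to that element in this window but overlapping CCAAT boxes on both strands, at -48 and -45. PSME1, which fell, holds an antioxidant response element at -86. Over windows that also include 50 bases after the start, 35 of the 40 members had an entry, and 12 of the 35 (34.3%) held the element in at least 1 window, against 16.1% of the 27305 genes in the table. The CCAAT box was in 18 of 35 (51.4%), against 39.7%. The heat shock element GAANNTTC, searched on both strands like the others, was in 0 of 35, against 8.21%. Of the 10 tested members with the antioxidant response element, 6 rose and 1 fell with copper in each line. Of the 21 tested members with an entry and without it, 11 rose in wild type and 16 in KO cells. A match is a string of letters and not a shown binding site. PSMA7, PSMB1, PSMB6, PSMB7 and PSMD4 had no entry.

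Copper also raised proteasome genes of the core and the cap in ATP7B KO cells. Of the 36 tested members, 26 rose and 1 fell, with 33.7% of all genes called (15.2% higher, 18.5% lower). In the core 12 of 13 rose, with a median log2 fold change over the 13 of 1.58, and in the cap 11 of 18, with a median of 1.43, while the median over all genes was 0.01. Leaving out each library in turn gave 21 to 32 members called, when 20.7% to 58.1% of all genes were. In each of those fits 21 of the 27 members kept their call. PSMA2, PSMA5, PSMA6, PSMB1, PSMB4 and PSME1 did not, at adjusted p up to 0.10. Without the 3 libraries that stood apart, 33 rose and 2 fell, with 19.1% of all genes called higher and 20.5% lower, and the medians were 1.16 for the core and 1.32 for the cap.

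PSMD12 measured 53.3, 48.1 and 53.4 CPM without copper and 182, 197 and 173 CPM with it. Here the untreated libraries that stood apart had the same level as replicate 3, and PSMD12 rose by 1.95 ± 0.17 (adjusted p = 1.27e-05). ADRM1 went from 140, 138 and 209 CPM to 655, 557 and 490 CPM, again without overlap. It rose by 1.93 ± 0.20 (adjusted p = 5.92e-05). PSMD1 rose by 1.89 ± 0.19 (adjusted p = 4.17e-05), PSMD2 by 1.59 ± 0.23, PSMD14 by 1.78 ± 0.29, POMP by 1.89 ± 0.22 and PSME4 by 2.20 ± 0.30 (1.55 ± 0.13 without the libraries that stood apart). PSME1 fell again, by 0.60 on the log2 scale (SE 0.18, adjusted p = 0.024), from 259, 192 and 287 to 142, 161 and 147 CPM. That call was lost without ATP7B KO untreated replicate 1 or any 1 of the copper replicates (adjusted p up to 0.097).

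The core genes with the largest increases in KO cells were those that were low in the untreated libraries that stood apart. PSMB7, the trypsin-like subunit, went from 67.2, 70.6 and 474 CPM to 1369, 1173 and 1144 CPM. It rose by 2.74 ± 0.59 (adjusted p = 0.0045), and by 1.55 ± 0.14 without the libraries that stood apart. PSMB1 went from 28.4, 23.5 and 376 CPM to 801, 713 and 720 CPM (2.53 ± 0.81, adjusted p = 0.031, and 1.17 ± 0.13 without those libraries). PSMB4 went from 2.77, 3.07 and 75.7 CPM to 155, 139 and 160 CPM (2.50 ± 0.86, adjusted p = 0.042, and 1.18 ± 0.15). In all 3 genes every copper library was above every untreated library, replicate 3 included. PSMB5 measured 1200, 958 and 842 CPM without copper and 1158, 1106 and 1138 CPM with it, and did not pass (0.29 ± 0.20, adjusted p = 0.27).

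Several ATPases were the reverse case. PSMC1 measured 2296, 2544 and 484 CPM without copper and 1217, 1432 and 1537 CPM with it, so that the copper group lay between the untreated libraries. Its log2 fold change was -0.26 ± 0.49 (adjusted p = 0.70), and 1.70 ± 0.13 without the libraries that stood apart. PSMC3 and PSMC5 likewise turned, from -0.10 ± 0.32 to 0.55 ± 0.12 and from -0.31 ± 0.34 to 0.79 ± 0.12. PSMC4 and PSMC6 rose in the full set, by 2.45 ± 0.53 (adjusted p = 0.0046) and 0.98 ± 0.19 (adjusted p = 0.0025). Without the libraries that stood apart they were at 1.46 ± 0.15 and 1.14 ± 0.18.

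**Figure D2:**
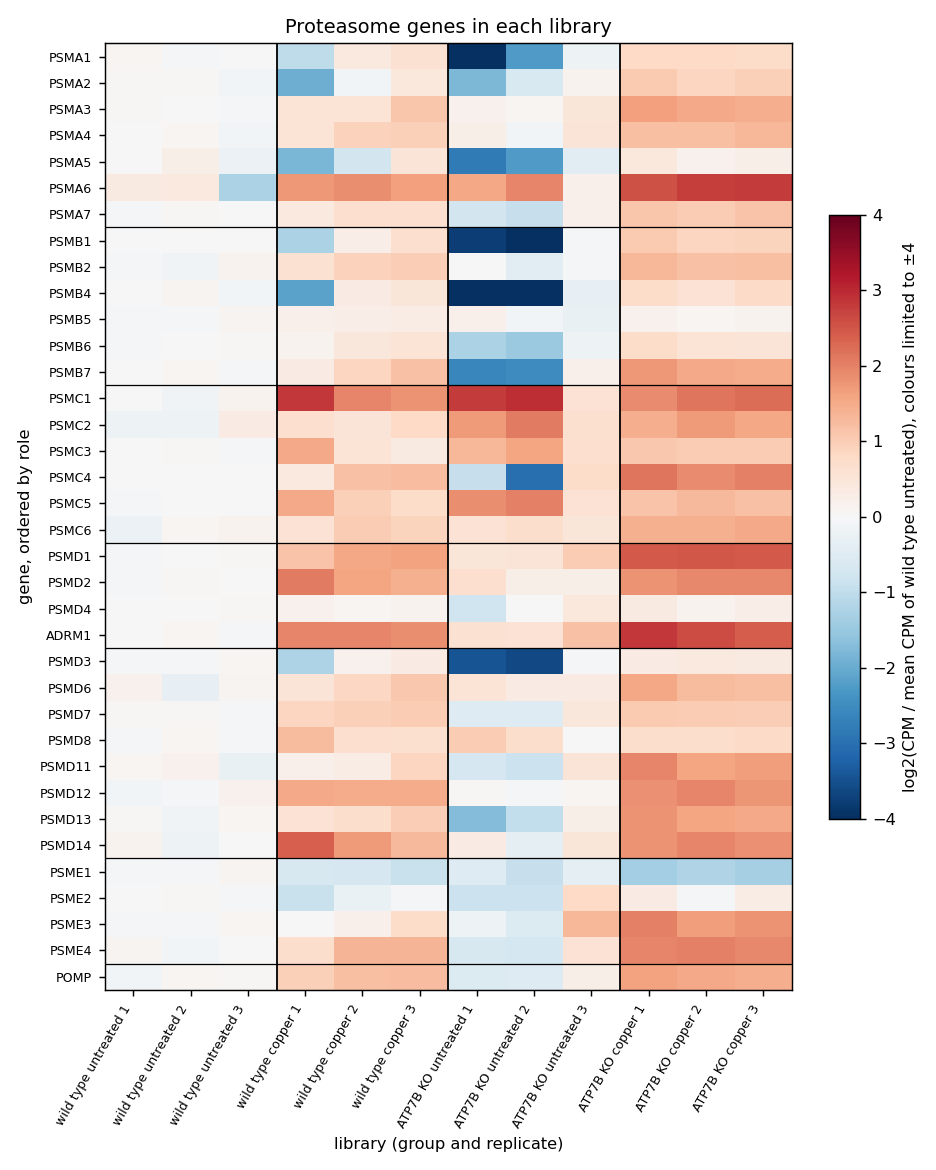
Each row is a tested proteasome gene, ordered by role, and each column a library. Colour gives log2 of CPM over the mean CPM of wild type untreated, limited to ±4. Red marks most genes in both copper groups, PSME1 is blue there, and ATP7B KO untreated replicates 1 and 2 hold both the darkest blue (PSMA1, PSMB1, PSMB4) and the darkest red (PSMC1) cells.

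The libraries that stood apart departed from their groups in a like manner in both lines. Across the 36 tested members, the mean of ATP7B KO untreated replicates 1 and 2 over replicate 3 ran from -4.70 for PSMB4 to 2.32 for PSMC1 on the log2 scale, with 15 genes lower and 4 higher by more than 1 (52.8% of the members, against 43.7% of the 11578 genes with a mean above 2 CPM over all libraries). Wild type copper replicate 1 over the mean of replicates 2 and 3 ran from -2.55 for PSMB4 to 1.05 for PSMC3. The ratios of the 2 sets were correlated over the 36 genes (Pearson's r = 0.818, Spearman's rho = 0.798), a description over genes that share libraries. The likeness was not particular to the members. Over all genes tested, deviations from the group mean in wild type copper replicate 1 were correlated with those in ATP7B KO untreated replicates 1, 2 and 3 at 0.49, 0.41 and -0.64. Deviations from a group's own mean cancel out within each gene. The negative sign for replicate 3 therefore follows from replicates 1 and 2 and is not a separate result. PSMB1, PSMB4, PSMD3, PSMA1, PSMA5 and PSMA2 were lower by more than 1 in both sets of ratios. PSMC1, PSMC3, PSMC5, PSMD2 and PSMD8 were higher in both. The low total counts of these libraries moved with this pattern, and their part in it was not tested.

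**Figure D3:**
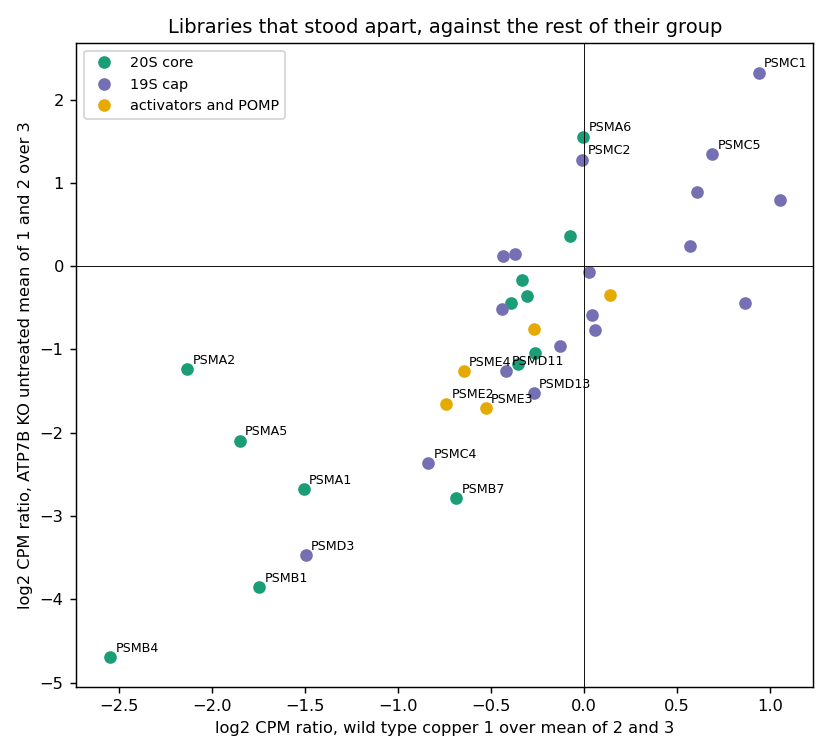
Each point is a tested proteasome gene. The x axis gives the log2 CPM ratio of wild type copper replicate 1 to the mean of replicates 2 and 3, and the y axis that of the mean of ATP7B KO untreated replicates 1 and 2 to replicate 3. PSMB4, PSMB1 and PSMD3 lie at the lower left and PSMC1 at the upper right.

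The copper effects of the lines, which share no library, agreed in direction for the members called in both. In total 14 members rose in both lines: PSMA3, PSMA4, PSMA6, PSMB2, PSMC6, PSMD1, PSMD2, ADRM1, PSMD6, PSMD7, PSMD12, PSMD14, PSME4 and POMP. PSME1 fell in both. Of all genes, 8.23% were called higher in wild type and 15.2% in KO cells, so at most 8.23% rose in both lines. For all genes, neither the share called in both lines nor its agreement in direction was counted. PSMC1, PSMC5 and PSMD8 were called only in wild type and 12 members only in KO cells, but the test of the difference itself called 0 of the 36 in edgeR. By edgeR 4.93% of all genes were called (1.26% with a more positive effect in KO cells, 3.67% with a more negative one). At an unadjusted p under 0.05 there were 15 members, against 3606 of all 11051 genes. DESeq2 called 6 of the 35 members it tested (17.1%), close to its 16.6% of all genes, and limma voom called 0. The smallest adjusted p was that of PSMC1 (0.052), whose difference was -2.56 ± 0.70 (KO minus wild type), and -0.23 ± 0.15 (adjusted p = 0.40) without the libraries that stood apart. In that fit 3 members passed, all with a larger increase in KO cells: PSMB1 (0.61 ± 0.16, adjusted p = 0.014), PSMB4 (0.71 ± 0.19, adjusted p = 0.014) and PSMD13 (0.69 ± 0.19, adjusted p = 0.019). Of all genes, 3.78% were called in that direction. Without ATP7B KO untreated replicate 3, which leaves only the libraries that stood apart in that group, 22 members (61.1%) passed, as did 51.5% of all genes.

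**Figure D4:**
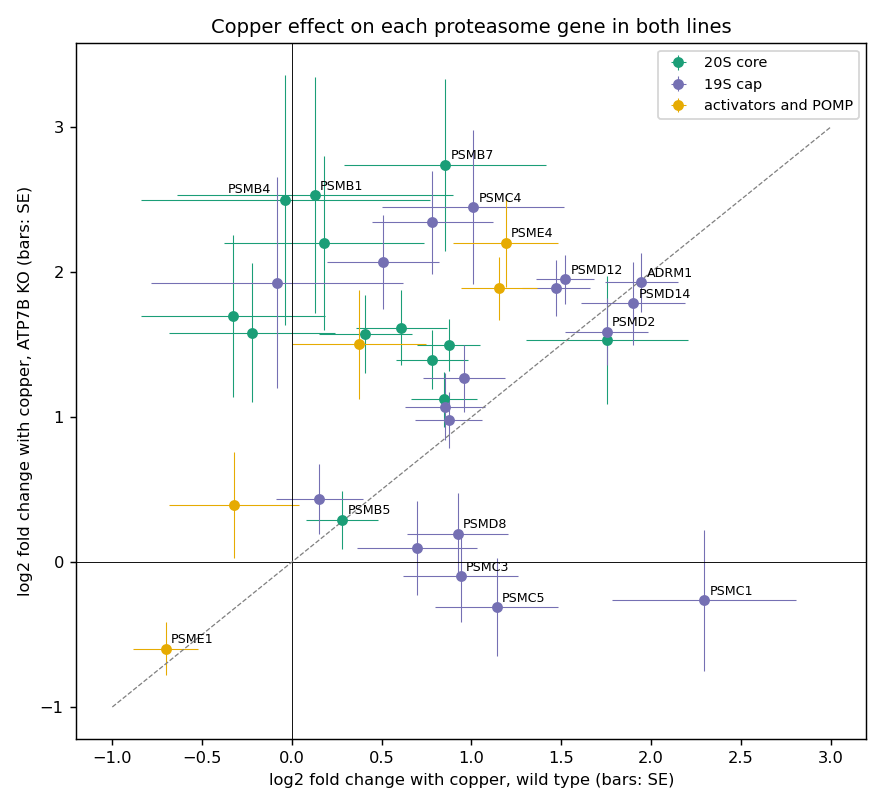
Log2 fold change with copper in wild type (x axis) and ATP7B KO cells (y axis) for each tested proteasome gene, with bars for the SE and a dashed line of equal change. ADRM1, PSMD2, PSMD12 and PSMD14 lie near the line with short bars, PSMB1, PSMB4 and PSMB7 lie above it with long bars, PSMC1 lies far below it and PSME1 is negative in both lines.

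Without copper, the share of members called between the lines was 22.2% in edgeR with all libraries, against 31.9% of all genes. Whether it lay below that of all genes depended on the fit. It was lower in DESeq2 (34.3% against 36.9%) and with only the groups compared (8.33% against 13.2%). It was higher in limma voom (33.3% against 32.8%), with the replicate number as a block (36.1% against 31.9%) and with no filter on low counts (30.8% against 17.6%). In ATP7B KO against wild type untreated cells, which shares its libraries with both copper comparisons, 6 of 36 members rose and 2 fell, with 31.9% of all genes called (17.9% higher, 14.0% lower). The 6 were the ATPases PSMC1, PSMC2, PSMC3 and PSMC5 (by 1.13 to 2.35) and PSMD1 and ADRM1 (by 0.57 and 0.69). PSMB6 and PSME1 fell, by 0.98 and 0.70 on the log2 scale. PSMC1, PSMC2 and PSMC5 kept their calls with any 1 library left out, and the other 5 did not (adjusted p up to 0.13). Leaving out single libraries gave 4 to 25 members called, 25 of them (69.4%) without ATP7B KO untreated replicate 3, when 59.0% of all genes were called, 4 without wild type untreated replicate 3, when 19.5% were, and 5 without wild type untreated replicate 1 or 2 or ATP7B KO untreated replicate 2.

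The ATPase differences were smaller without the libraries that stood apart, when 10 members rose and 4 fell, with 16.8% of all genes called higher and 17.7% lower. PSMC1 was then at 0.36 ± 0.12 (adjusted p = 0.017), against 2.35 ± 0.51 with all libraries, and PSMC5 at 0.39 ± 0.12 (adjusted p = 0.0088), against 1.50 ± 0.35. PSMC3 was at 0.46 ± 0.12 and PSMB6 at -0.39 ± 0.14. PSMC2 no longer passed (0.44 ± 0.22, adjusted p = 0.13). ADRM1 and PSMD1 moved up instead, to 0.98 ± 0.14 and 0.82 ± 0.12. PSME1 kept its lower level in KO cells, at -0.56 ± 0.13 (adjusted p = 0.00058). PSME3, the nuclear PA28 gamma activator, measured 44.0, 44.1 and 47.2 CPM in wild type and 38.8, 30.7 and 114 CPM in KO cells. With replicate 3 alone it was at 1.13 ± 0.16 (adjusted p = 1.01e-06), and with all libraries at 0.32 ± 0.37 (adjusted p = 0.52).

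In copper a few members were called higher in the KO line. Called or not, 31 of the 36 tested members had a positive log2 fold change, against 5822 of all 11051 genes. The median was 0.50 over the members and 0.05 over all genes. PSMA3, PSMD1, ADRM1, PSMD11 and PSME3 rose, by 0.67 to 1.45, and PSME1 fell, with 13.8% of all genes called (5.77% higher, 8.03% lower). PSMD1 measured 233, 312 and 320 CPM in wild type and 574, 594 and 584 CPM in KO cells, without overlap. Its log2 fold change was 0.99 ± 0.19 (adjusted p = 0.0049), and its call alone held in every fit with 1 library left out. PSME3 was at 44.3, 52.3 and 75.5 CPM against 181, 142 and 158 CPM (1.45 ± 0.37, adjusted p = 0.024). PSMD11 was at 122, 130 and 196 CPM against 414, 323 and 339 CPM (1.23 ± 0.31, adjusted p = 0.023). With 1 library left out, 5.9% (without ATP7B KO copper replicate 1) to 31.2% (without ATP7B KO untreated replicate 3) of all genes were called. The number of members called moved too. The number called was 1 without wild type copper replicate 1 or 2 or any 1 of the ATP7B KO copper replicates, 3 without wild type untreated replicate 1, 2 or 3, 15 without ATP7B KO untreated replicate 3, and 22 without the 3 libraries that stood apart (20 rose, 2 fell, with 17.3% of all genes called higher and 20.6% lower).

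PSME1 had its highest level in wild type untreated cells and its lowest in ATP7B KO copper, and passed the test as lower in all 4 pairwise comparisons. Its groups did not overlap in any of the 4. The calls between the lines were lost with some libraries left out, untreated without wild type replicate 3 or KO replicate 2 (adjusted p up to 0.063) and in copper without any 1 of 9 libraries (up to 0.16). The 3′ end of PSME1 lies over EMC9 on the other strand, as that of ADRM1 lies over LAMA5 and that of PSMC1 over NRDE2. The sources used here do not give the strand setting of the counting, and without strand the reads of such a pair cannot be told apart. In all, 12 of the 39 members overlap another gene within the last 500 bases in GENCODE v29.

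The immunoproteasome subunits were near or at 0. PSMB8 had 1 count in all 12 libraries, PSMB9 had 29 and PSMB10 had 9. PSMB9 was at 2.14 CPM in ATP7B KO untreated replicate 3, at 3.21, 1.67 and 1.19 CPM in ATP7B KO copper, and at 0.562 CPM or less in the other 8 libraries. A count of 0 allows up to 0.783 CPM in the deepest library and 3.07 CPM in the shallowest (3 counts of the total, counting error only), and none of the 3 genes was tested. In copper the PSMB9 counts were 9, 4 and 3 in KO and 0, 1 and 1 in wild type libraries. The 0, of wild type copper replicate 1, allows up to 1.60 CPM, above the 1.19 CPM of ATP7B KO copper replicate 3. Such a bound on a single library is not a test of the groups, and whether the lines differ in PSMB9 was not tested.

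For PSMB8 and PSMB9, whose place is the major histocompatibility complex on chromosome 6, the low counts are shared by their region. The 139 genes between HLA-F and KIFC1 had a median of 1 count over all libraries and 45.3% of them had none, whereas the other 808 genes of the chromosome had a median of 140 and 19.4% had none. HLA-B had 1 count, against 18771 for B2M, the partner chain encoded elsewhere. DDX39B had 0 counts and TUBB 163, genes of the span that most dividing cells use and that were chosen after their values were seen, while RPS18 in the same span had 25587. The counts of PSMB8 and PSMB9 therefore do not tell low expression from low counting in that span. PSMB10 lies on chromosome 16, among neighbours with a median of 346 counts, and its 3′ end overlaps a gene on the same strand, as do those of PSMA1, PSMA2, PSMA6 and, for a microRNA gene, PSME2.

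The assembly chaperones outside the set, unlike the maturation factor POMP, were not called with copper in either line. Of the 8 such chaperones (PSMG1 to PSMG4, PSMD5, PSMD9, PSMD10 and PAAF1), 0 were called by edgeR in either copper comparison, at an unadjusted p under 0.05 also 0 in each, and DESeq2 and limma voom called 0 as well. Over all 11051 genes, 14.9% were called in wild type and 33.7% in KO cells, and 3304 and 5071 were at an unadjusted p under 0.05. Their median log2 fold change was -0.31 in wild type and 0.34 in KO cells. Without the 3 libraries that stood apart, 0 were called in wild type cells, and in KO cells PSMD9 rose (0.49 ± 0.17, adjusted p = 0.018) and PSMG4 fell (-0.55 ± 0.19, adjusted p = 0.019).

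Factors that work with the proteasome changed in part. Of 12 such genes, 3 rose with copper in wild type and 6 in KO cells, where 8.23% and 15.2% of all genes were called higher. ZFAND2A, the stress-induced AIRAP that binds the 19S cap, went from 73.8, 73.6 and 83.7 CPM to 1828, 1023 and 887 CPM in wild type cells. It rose by 4.05 ± 0.42 (adjusted p = 0.00014), and in KO cells by 3.15 ± 0.40 (adjusted p = 0.00021), from 234, 266 and 97.0 to 1659, 1786 and 1509 CPM. Without the libraries that stood apart the increase was 3.69 ± 0.10 in wild type and 4.27 ± 0.16 in KO cells, so that the order of the lines turned. TXNL1, a thioredoxin of the 19S cap, and ZFAND5, an activator of the 26S proteasome, rose in both lines as well, TXNL1 by 0.78 and 1.81 and ZFAND5 by 0.92 and 1.48. ECPAS and RAD23B were among the others that rose in KO cells, and RAD23B went from 1.16 to 0.32 ± 0.12 (adjusted p = 0.032) without the libraries that stood apart. USP14 and UCHL5, the other deubiquitinases of the cap, were not called in either copper comparison. Without the libraries that stood apart USP14 rose in both lines (0.40 ± 0.11 and 0.52 ± 0.14) and UCHL5 in wild type (0.52 ± 0.12). SEM1, a small lid subunit, was at 806, 805 and 215 CPM in ATP7B KO untreated, against 213, 217 and 219 CPM in wild type untreated, and its difference went from 1.39 ± 0.44 (adjusted p = 0.032) to -0.21 ± 0.12 (adjusted p = 0.19) without the libraries that stood apart.

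The transcript of the regulator NFE2L1, whose protein activates subunit genes, did not rise. Its level was 188, 198 and 200 CPM in wild type untreated, 165, 126 and 137 CPM in wild type copper, 79.7, 70.6 and 88.5 CPM in ATP7B KO untreated and 59.5, 65.7 and 68.5 CPM in ATP7B KO copper. With copper it was at -0.42 ± 0.17 in wild type (adjusted p = 0.11, and -0.51 ± 0.11, adjusted p = 0.000205, without the libraries that stood apart) and -0.19 ± 0.17 in KO cells (adjusted p = 0.41). It was lower in KO than in wild type cells untreated (-1.42 ± 0.17, adjusted p = 0.00028) and in copper (-1.18 ± 0.17, adjusted p = 0.0011). The related NFE2L2 fell with copper in KO cells (-0.78 ± 0.21, adjusted p = 0.014, and up to 0.062 without ATP7B KO untreated replicate 1 or ATP7B KO copper replicate 1 or 3) and was at 0.02 ± 0.21 in wild type. Neither transcript level measures the activity of its protein, which is regulated after translation.

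The small MAF partners and the NFE2L1 protease did change. MAFF went from 16.9, 23.5 and 21.9 CPM to 71.5, 77.6 and 84.8 CPM in wild type cells, and from 1.39, 5.12 and 3.97 CPM to 88.7, 88.3 and 94.4 CPM in KO cells. It rose by 1.93 ± 0.24 (adjusted p = 0.00048) in wild type and by 4.82 ± 0.31 (adjusted p = 2.22e-06) in KO cells. The copper groups of both lines were close, and the untreated groups were not. MAFK rose in both lines (1.31 ± 0.19 and 1.42 ± 0.20), and MAFG rose in KO cells (3.43 ± 0.41, adjusted p = 0.00015, and 2.68 ± 0.17 without the libraries that stood apart) and was at 0.47 ± 0.37 in wild type. DDI2, the protease that cleaves NFE2L1 into its active form, fell with copper in KO cells (-2.84 ± 0.36, adjusted p = 0.00019), from 679, 577 and 251 to 63.4, 64.5 and 68.1 CPM, and was at -0.56 ± 0.33 in wild type. Its untreated level was highest in the KO libraries that stood apart, and without them the KO value was -1.76 ± 0.13. HSF1 and HSF2, the heat shock factors, were not called in any of the 5 comparisons.

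**Figure D5:**
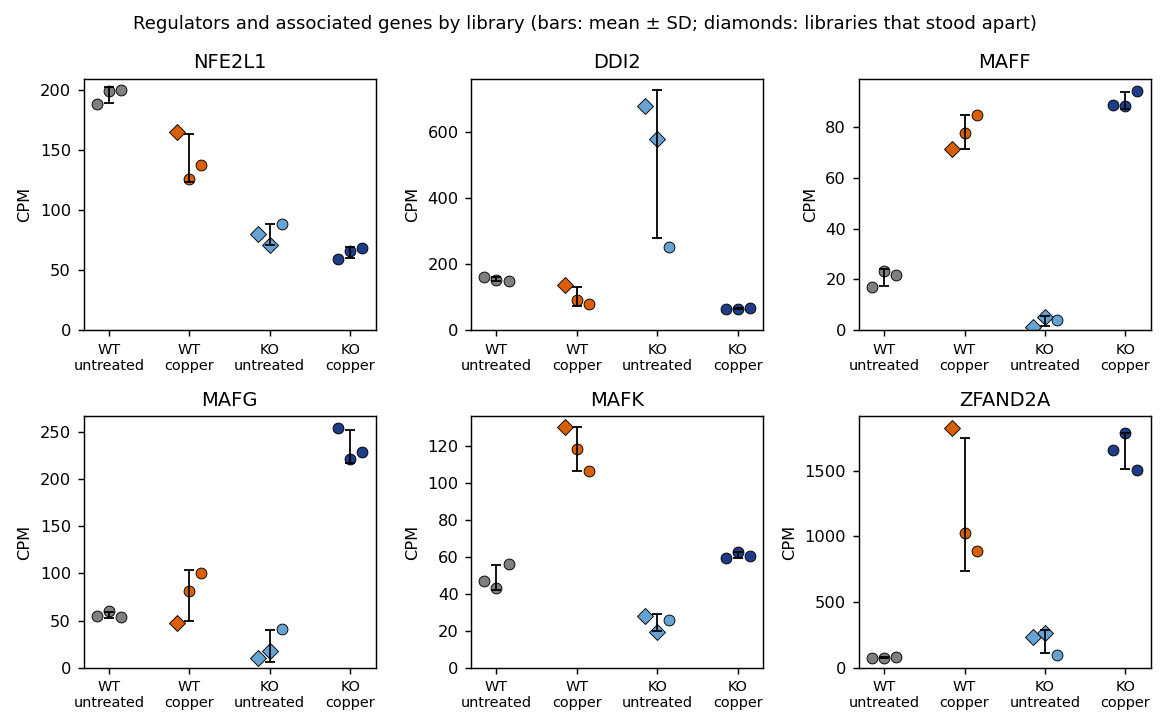
CPM (y axis, from 0) of NFE2L1, DDI2, MAFF, MAFG, MAFK and ZFAND2A in the 4 groups (x axis), with 1 point per library, diamonds for the libraries that stood apart and bars for the mean ± SD of 3 libraries. NFE2L1 is lower in both KO groups, whereas MAFF, MAFK and ZFAND2A are higher in both copper groups than in their untreated groups.

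Of the 12 genes of antigen processing and the interferon response, 6 passed the filter on low counts. IRF1, which drives immunoproteasome genes, was not called with copper and was higher in KO than in wild type untreated cells (1.79 ± 0.38, adjusted p = 0.0052, and 1.10 ± 0.30 without the libraries that stood apart). B2M, ERAP1 and NLRC5 were not called in any of the 5 comparisons.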

How the data were processed

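The 12 libraries of HepG2 cells were made with a 3′ mRNA kit (QuantSeq) from 100 ng of RNA and read single-end for 75 bp, per the labels' protocols. The deposited values are raw read counts per gene. Per the submitters' processing notes, STAR 2.3.0 and HTSeq were used with hg19, and the sources used here do not give the annotation release or strand setting. Identifiers were named from GENCODE v29 and the gene name tables, which covered 45776 of 47634 (99.5% of counts). No length correction was applied, since tags come from the 3′ end, and intervals and floors cover counting error only.

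Differences were tested in edgeR 4.0.16 under R 4.3.3 (filterByExpr, TMM scaling, robust quasi-likelihood fit with 4 group means over all 12 libraries, biological coefficient of variation 29.1%). P-values were adjusted over 11051 genes by the Benjamini-Hochberg method and called at 0.05, and the SE is the ratio of the log2 fold change to the square root of the F statistic. The steps were tested on simulated data. Alternatives were other size factors, filters of no minimum or of 10 counts in 6 libraries, DESeq2 1.42.0, limma voom (3.58.1), only the groups compared, a replicate block, each library left out, and, added after seeing the data, the 3 libraries that stood apart left out. All members and genes of the other lists were open to naming. Members and lists were chosen with earlier results of these data known. Some genes of the lists are not reported here. Replicates all differed beyond sampling noise (chi-square over degrees of freedom 1.85 to 52.2).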

Additional observations from a re-analysis of the deposited data

Results flagged for a closer look

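The copper effect differed between the lines by the test of the difference itself (edgeR's quasi-likelihood test, KO minus wild type) for 4.93% of all genes tested. Of the genes on the lists used here it did so for 3, all of them on the list of regulators of proteasome genes. MAFF differed by 2.89 ± 0.39 on the log2 scale (SE, adjusted p = 0.0066) and was at 2.64 ± 0.37 without the 3 libraries that stood apart. MAFG differed by 2.95 ± 0.54 (adjusted p = 0.025) and was at 1.91 ± 0.21 without those libraries. DDI2 differed by -2.29 ± 0.48 (adjusted p = 0.034) and was at -0.97 ± 0.17 without them. With single libraries left out, the adjusted p of MAFG ran up to 0.091 and that of DDI2 up to 0.11, whereas MAFF passed in each such fit.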

How the results depend on the processing

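With 1 library left out, the share of all genes called ran from 6.4% to 33.1% for copper in wild type. For copper in KO it ran from 20.7% to 58.1%. Between the lines it ran from 17.9% to 59% untreated and from 5.9% to 31.2% in copper. For the difference of copper effects it ran from 0.113% to 51.5%. Each value in brackets below is the number of the 36 tested members called. With 1 library left out, the number ran from 7 to 26 for copper in wild type (18 in all libraries), from 21 to 32 for copper in KO (27), from 4 to 25 for KO against wild type untreated (8), from 1 to 15 for KO against wild type in copper (6) and from 0 to 22 for the difference of copper effects (0). Without the 3 libraries that stood apart the numbers were 32, 35, 14, 22 and 3. With only the 2 groups compared, 3 members (and 13.2% of all genes) were called between the lines untreated and 13 (and 26.5%) in copper. For the difference of copper effects, relative log expression factors and the stricter filter each gave 1 member, with 6.28% and 7.21% of all genes. DESeq2 gave 6 of the 35 members it tested, with 16.6% of all genes. With no filter it was 12 of 39 members, with 9.77% of all genes. The cause of these shifts was not tested.

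Replicate numbers did not pair the libraries: same-numbered deviations were correlated at -0.22 to 0.61, over 0.1 in 2 of 18 pairs, and 4 of 12 libraries were closest to their own number. With the replicate number as a block, 18, 28, 13, 4 and 0 members were called. Of all genes, 13.5%, 33.6%, 31.9%, 11.5% and 1.02% were.

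Without the 3 libraries that stood apart, these log2 fold changes turned sign and passed the test with those libraries, without them or both. For copper in wild type, PSMB4 was at 0.47 and PSMD3 at 0.31. For copper in KO, PSMC1 was at 1.70, PSMC3 at 0.55, PSMC5 at 0.79, PSME2 at -0.42 and SEM1 at 0.57. For KO against wild type untreated, PSMC4 was at 0.53, PSME2 at 0.59, PSME4 at 0.38, PSMG1 at 0.47, PSMG3 at 0.67 and SEM1 at -0.21. For KO against wild type in copper, UBE3C was at 0.53. For the difference of copper effects, ZFAND2A was at 0.57.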

Other observations

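UCHL5, a deubiquitinase of the 19S cap, measured 62.2, 67.1 and 72.4 CPM in wild type untreated, 90.7, 97.2 and 87.5 CPM in wild type copper, 178, 194 and 114 CPM in ATP7B KO untreated and 101, 98.4 and 105 CPM in ATP7B KO copper. Every copper library was above the untreated ones in wild type and below them in KO cells, and the difference of the copper effects did not pass the test (-1.04 ± 0.31, adjusted p = 0.060). AKIRIN2, which carries proteasomes into the nucleus, had the same order: 20.3, 21.2 and 20.8 CPM, then 37.4, 38.8 and 23.2 CPM in wild type, and 29.1, 28.7 and 21.7 CPM, then 20.3, 18.4 and 20.7 CPM in KO cells (-0.98 ± 0.34, adjusted p = 0.089). Without the libraries that stood apart, the copper effect in KO cells was 0.01 ± 0.14 for UCHL5 and 0.05 ± 0.26 for AKIRIN2.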
